A study of Mus musculus with 3 samples.

Results

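The genes described here are 9 genes of the integrated stress response that act with or downstream of the transcription factor ATF4: Atf4, Atf5, Ddit3, Trib3, Asns, Psat1, Phgdh, Chac1 and Sesn2. They were chosen by name, and every probe set that the platform annotation pairs with 1 of these symbols alone was taken, which gave 19 probe sets of 45037 and 9 genes of 18193. The study hybridised RNA from Sca-1+ lineage- bone marrow to 3 Affymetrix arrays. Sca-1 is a surface protein of early blood cells, and lineage markers are those of mature blood cells, although neutrophil genes were bright on all 3 arrays. The arrays were of transgenic Line 6, transgenic Line 3 and wild type, all C57BL/6J mice aged 10 weeks. Both lines carry the construct labelled Ly6a-KDM1A*v2, named with Ly6a, the gene of Sca-1, and with KDM1A, the human symbol for the histone demethylase LSD1. How many mice were pooled for an array is not stated in the labels. With 1 array per genotype, the differences carry no replicate error and no test of one genotype against another, and the array number is what limits precision.

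The integrated stress response begins when 1 of several kinases phosphorylates the translation factor eIF2, which slows protein synthesis in general while the Atf4 messenger RNA is translated more. ATF4 protein then activates genes of amino acid synthesis and transport, redox balance and, when stress persists, cell death. In haematopoietic stem and progenitor cells this pathway is known for its part in the response to proteotoxic stress and amino acid shortage. Arrays measure messenger RNA, so the translational step of ATF4 lies outside these values.

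Intensities are the deposited linear values, and differences are on the log2(intensity + 16) scale, each line against wild type or Line 3 against Line 6, where 1 is a 2-fold difference. A gene is represented by its brightest probe set and was kept when it reached the median intensity of the array on 1 or more arrays (116 in Line 6, 99.0 in Line 3 and 96.2 in wild type). All 9 genes and 17 of their 19 probe sets passed this filter, as did 10864 genes in total. On this scale the median difference over all kept genes was 0.06 in Line 6 and 0.12 in Line 3.

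ATF4 binds with C/EBP partners to a composite element whose core was searched for as TGATGNAA on both strands of the RefSeq promoters (GRCm38.p6, 250 bases before to 50 after the gene start). Of 32851 promoters, 3.97% held these letters, and 3 of the 11 promoters of the 9 genes did, those of Asns, Chac1 and Trib3. The stretches of Asns and Chac1 are shown because these genes took different courses in the lines, with the matched letters in capitals. The Asns stretch lies at chr6:7693210-7693258 on the minus strand and the Chac1 stretch at chr2:119351023-119351082 on the plus strand, where the core runs on the opposite strand and begins 193 bases before the start.
Asns: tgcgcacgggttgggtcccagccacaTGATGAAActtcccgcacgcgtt
Chac1: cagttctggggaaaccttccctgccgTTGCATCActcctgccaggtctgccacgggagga
In Trib3 the match began 14 bases after the start. A second form, TGNTGCAAT, was chosen after reading these promoters and was present in Trib3 and Psat1 and in 0.673% of all promoters. The Trib3 stretch lies at chr2:152344061-152344119 and the Psat1 stretch at chr19:15925161-15925221, both on the minus strand.
Trib3: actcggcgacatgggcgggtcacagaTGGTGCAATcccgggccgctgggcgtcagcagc
Psat1: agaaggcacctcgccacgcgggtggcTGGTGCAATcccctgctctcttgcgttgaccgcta
The endoplasmic reticulum stress element, searched for on both strands, was in none of the 9 genes' promoters and in 0.119% of all. These matches describe the letters only.

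Atf4, the transcription factor of the pathway, was among the brighter genes and lay close to wild type in both lines. Its brightest probe set read 3549 in Line 6, 4007 in Line 3 and 4115 in wild type, differences of -0.21 and -0.04. A second probe set read 3098 in Line 6, 3128 in Line 3 and 3280 in wild type. The order was Line 6, Line 3, wild type on both, from low to high, and the brightest probe set was 1.16-fold lower in Line 6 than in wild type. Another Atf4 probe set, 1439258_at, lay below every array's median at 10.8 in Line 6, 27.9 in Line 3 and 22.6 in wild type and was not counted.

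Atf5, a relative of ATF4 whose messenger RNA is also under translational control by eIF2, was higher in both lines by less than 2-fold. Its single probe set read 513 in Line 6, 570 in Line 3 and 379 in wild type, differences of 0.42 and 0.57. Both lines lay above wild type, and relative to the median of all genes the differences were 0.36 and 0.44. Its difference in Line 6 was between 0.18 and 0.44 under every processing setting run.

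Ddit3, which encodes CHOP, the factor that links prolonged stress to cell death, showed no clear course. Its brighter probe set read 619 in Line 6, 721 in Line 3 and 618 in wild type, differences of 0.00 and 0.22. The dimmer one read 330 in Line 6, 365 in Line 3 and 370 in wild type. Line 6 and wild type were nearly equal on the first and Line 3 and wild type on the second.

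**Figure D1:**
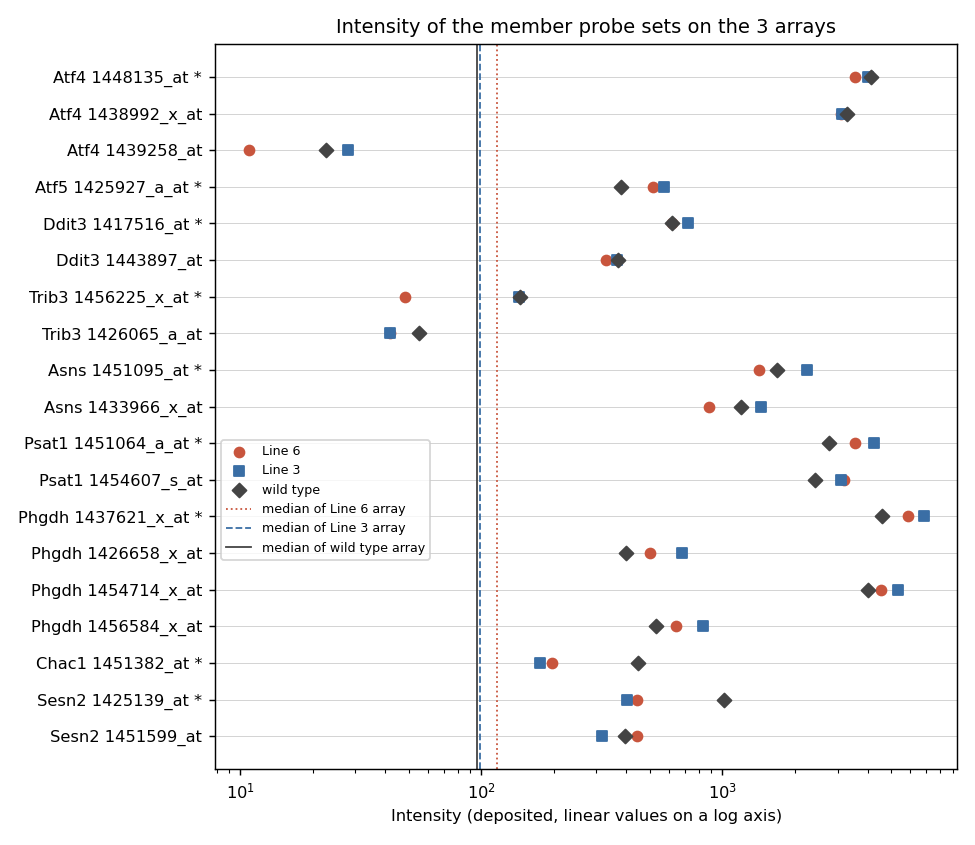
Intensity (log axis) of the 19 probe sets of the 9 genes on the arrays of Line 6 (circles), Line 3 (squares) and wild type (diamonds), with an asterisk at each gene's brightest probe set and vertical lines at the array medians. Chac1 and 1 of the Sesn2 probe sets have both lines left of wild type, Psat1, Phgdh and Atf5 have both lines right of it, and the Line 6 point of the brighter Trib3 probe set stands alone at 48.4. Where points coincide, the wild type symbol covers Line 3 and the Line 3 symbol covers Line 6.

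Trib3, a pseudokinase that is induced by ATF4 and CHOP and in turn restrains them, was lower in Line 6 and equal to wild type in Line 3 on its brighter probe set. That probe set, 1456225_x_at, read 48.4 in Line 6, 143 in Line 3 and 144 in wild type. The Line 6 value lay below the median of its array and the other two lay above theirs. The difference from wild type was -1.32 in Line 6, where 1.27% of the 10864 genes were lower still, and -0.01 in Line 3. Line 3 stood 1.30 above Line 6 on the log2 scale, rank 33 from the top among all genes. The other Trib3 probe set, 1426065_a_at, read 41.9 in Line 6, 41.9 in Line 3 and 55.1 in wild type, below every array's median, and its differences were -0.30 and -0.30. The gap between the lines therefore rests on 1 probe set, of the x_at type that can also detect other transcripts.

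Enzymes of serine synthesis were higher in both lines by less than 2-fold. Psat1, the phosphoserine aminotransferase, read 3531 in Line 6, 4236 in Line 3 and 2753 in wild type, differences of 0.36 and 0.62. Its second probe set read 3187 in Line 6, 3099 in Line 3 and 2429 in wild type. Both lines exceeded wild type on both probe sets, while the order of the lines changed between them, and in Line 6 the brighter one stayed above 0 under every setting run, at 0.12 or more. Phgdh, the dehydrogenase that opens the same pathway, read 5890 in Line 6, 6824 in Line 3 and 4584 in wild type on its brightest probe set, differences of 0.36 and 0.57. The other 3 single-symbol probe sets of Phgdh gave differences of 0.17 to 0.32 in Line 6 and 0.41 to 0.75 in Line 3. All 4 put Line 3 highest and wild type lowest, and all 4 are of the x_at type. Psph, the phosphatase that completes serine synthesis, read 725 in Line 6, 829 in Line 3 and 562 in wild type. Psph was not among the 9 genes and was chosen after its values were seen.

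Asns, the asparagine synthetase and a standard ATF4 target, stood on opposite sides of wild type in the lines. Its brighter probe set read 1422 in Line 6, 2250 in Line 3 and 1686 in wild type, differences of -0.24 and 0.41. The second read 882 in Line 6, 1442 in Line 3 and 1191 in wild type, differences of -0.43 and 0.27. Both probe sets gave the order Line 6, wild type, Line 3 from low to high, and no setting turned either sign. Line 3 exceeded Line 6 by 0.66 on the brighter probe set, and 96.9% of all genes had a lower difference between the lines.

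Chac1, an enzyme that degrades glutathione and a sensitive ATF4 target, was lower in both lines by more than 2-fold. Its single probe set, 1451382_at, read 196 in Line 6, 175 in Line 3 and 445 in wild type. The lines lay close to each other and both below wild type, at 2.17-fold and 2.41-fold lower (differences of -1.12 and -1.27). Among all genes, 1.91% were lower still in Line 6 and 2.90% in Line 3.

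Sesn2, a leucine sensor that restrains the growth kinase complex mTORC1, was lower in both lines by a similar amount on its brightest probe set, and not on its other one. The probe set 1425139_at read 442 in Line 6, 403 in Line 3 and 1014 in wild type, differences of -1.17 and -1.30. The probe set 1451599_at read 441 in Line 6, 318 in Line 3 and 395 in wild type, differences of 0.15 and -0.30. On the first the wild type array stood alone, and on the second it lay between the lines. Over the 5568 genes with at least 2 probe sets above the filter, the differences of the brightest and the next probe set lay a median of 0.18 apart in Line 6 and 0.21 in Line 3, with percentile 95 at 0.76 and 0.80. The Sesn2 gap was -1.32 in Line 6 and -0.998 in Line 3, and 0.593% and 2.37% of these genes had a gap at least as large. The Sesn2 difference is therefore uncertain.

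As a group, the 9 genes did not move one way. In Line 6, 3 of the 9 were at least 2-fold lower (Trib3, Chac1 and Sesn2), where 2.41% of all kept genes were lower, and none was higher, against 2.57% of all genes. In Line 3, 2 of the 9 were lower (Chac1 and Sesn2), against 4.46% of all genes, and none was higher, against 3.57%. Between Line 3 and Line 6, 1 of the 9 was higher in Line 3 (Trib3), against 0.709% of all genes, and none was lower, against 1.58%. With the limit at 1.5-fold in either direction, 3 of the 9 passed in Line 6 (16.2% of all genes), 3 in Line 3 (25.3%) and 2 between the lines (9.57%), and at 3-fold none did, against 1.21%, 2.32% and 0.488% of all genes in the same order. With the median of each gene's probe sets, under which Trib3 and Sesn2 stayed within 2-fold, the 2-fold counts were 1 in Line 6, 1 in Line 3 and 0 between the lines. With a pseudocount of 64 they were 1, 2 and 0. The median difference of the 9 genes was -0.21 in Line 6, beside 0.06 over all genes, and 0.22 in Line 3, beside 0.12. The single wild type array serves both comparisons, so the low values of Chac1 and Sesn2 in both share that array's reading. In Line 6 the share of higher genes among all past 2-fold was 51.6% as deposited and between 23.5% and 34.0% under quantile normalization, median centring and cyclic loess. Between the lines it was 30.9% as deposited and between 40.9% and 57.9% under these scalings.

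The lines can be pooled as 2 samples of 1 transgenic group, with the lone wild type array assumed to vary as they do. In that limma fit 0 of 10864 genes passed an adjusted p of 0.05, while an unadjusted p under 0.05 was reached by 973 genes that were higher and 759 that were lower. Sesn2 had an adjusted p of 0.116 in limma (unadjusted 0.0017) and Chac1 an adjusted p of 0.118 (unadjusted 0.0021), with mean differences of -1.23 and -1.19 and both lines below wild type. The other 7 genes had unadjusted p-values in limma above 0.05.

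**Figure D2:**
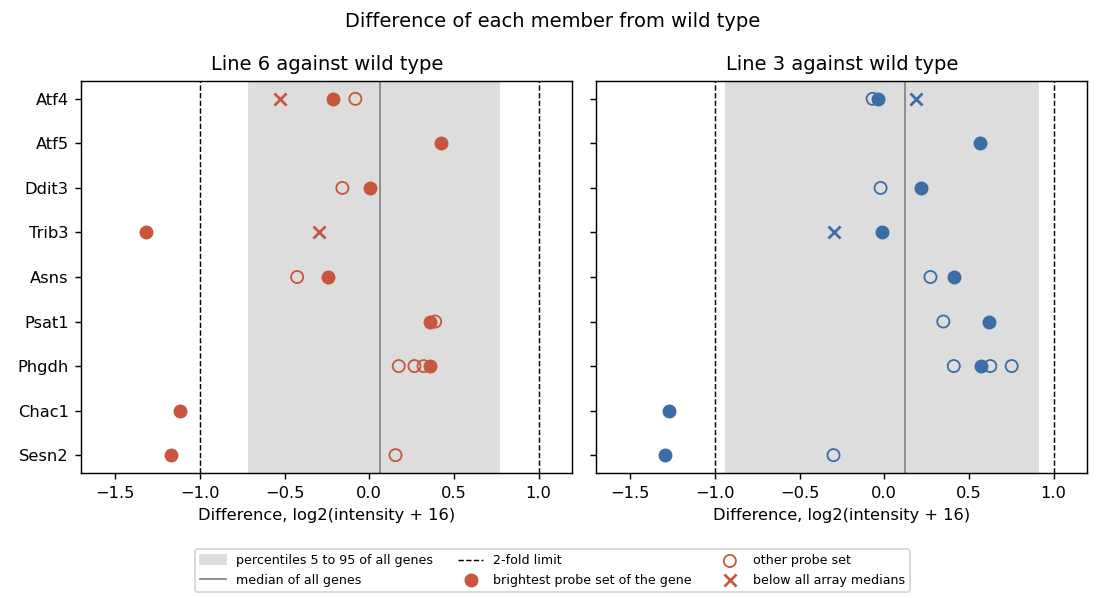
Differences of the 9 genes from wild type in Line 6 (left) and Line 3 (right) on the log2(intensity + 16) scale, with filled points for the brightest probe set, open points for other probe sets and crosses for those below every array's median. Chac1 and the brighter Sesn2 probe set lie left of the 2-fold limit in both lines and Trib3 in Line 6, outside the grey band of percentiles 5 to 95 of all genes, while the open Sesn2 points lie at 0.15 and -0.30.

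Other ATF4 target genes went both ways. Of a list of 40, 32 passed the filter. In Line 6, 3 were at least 2-fold lower and none was higher, where 2.41% and 2.57% of all genes were. In Line 3, 5 were lower and 3 were higher, where 4.46% and 3.57% of all genes were. The median was 0.01 in each line. The call counts were equal under all 4 scalings. Atf3, a stress-induced repressor that ATF4 activates, read 101 in Line 6, 233 in Line 3 and 609 in wild type, differences of -2.42 and -1.33. Jdp2, a related repressor, read 794 in Line 6, 681 in Line 3 and 1726 in wild type, differences of -1.11 and -1.32, and its dimmer probe set gave -0.68 and -0.44. Trib1, the relative of Trib3 that targets C/EBPα for degradation, read 240 in Line 6, 363 in Line 3 and 764 in wild type, differences of -1.61 and -1.04, with -1.66 and -1.75 on a second probe set. Stc2, a secreted glycoprotein of the stress response, was higher at 65.3 in Line 6 and 107 in Line 3 against 29.5 in wild type, and passed the filter only through Line 3. The remaining 4 genes past the limit passed it in Line 3 on their brightest probe set and were named after their values were seen. These were Ddit4, an inhibitor of mTORC1 (0.61 in Line 6 and 1.13 in Line 3), the lipoprotein receptor gene Vldlr (0.72 and 1.27, with 1.27 and 1.47 on a second probe set), the cystine transporter gene Slc7a11 (-0.36 and -1.32) and the glycine transporter gene Slc6a9 (-0.13 and -1.05, with 0.26 and -0.98 on a second probe set). The second Vldlr probe set read 49.1 in wild type, below that array's median, and passed the filter only through the lines.

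Genes upstream of ATF4 lay within 2-fold in Line 6 and mostly so in Line 3. Of 19 listed genes of the eIF2 kinases, eIF2, its exchange factor eIF2B and its phosphatases, 18 passed the filter. Their medians were -0.02 in Line 6 and 0.11 in Line 3, beside 0.06 and 0.12 over all genes. None was past 2-fold in Line 6, where 2.57% of all genes were higher and 2.41% were lower. In Line 3, 3 were higher and none was lower, where 3.57% and 4.46% of all genes were. The 3 were Eif2ak4, which encodes the amino acid sensing kinase GCN2 (297 in Line 6, 458 in Line 3 and 217 in wild type), its activator gene Gcn1 (1.05) and Dele1 (1.02), whose product signals mitochondrial stress. All 3 lay at the edge of the limit: after cyclic loess or quantile normalization none of them passed, and after centring 1 did, and the other probe sets of Gcn1 (0.50 and 0.39) and Dele1 (0.27) were below it. Ppp1r15a, the stress-induced phosphatase subunit GADD34, read 1112 in Line 6, 1115 in Line 3 and 1303 in wild type, and Eif2ak3, the kinase PERK of the endoplasmic reticulum, read 627, 656 and 752 in the same order. Both were added after their values were seen.

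Genes that charge transfer RNAs, a further set of ATF4 targets, were slightly higher in Line 3. All 19 cytosolic aminoacyl-tRNA synthetase genes that passed the filter lay above wild type in Line 3, by 0.06 to 0.996 and with a median of 0.34, where 60.6% of all genes lay above it with a median of 0.12. None reached 2-fold as deposited, where 8.03% of all genes were past it in Line 3. After quantile normalization 1 reached it, and under cyclic loess 18 of the 19 were above wild type. In Line 6, 14 of 19 lay above wild type, where 57.6% of all genes did, with a median of 0.08 beside 0.06 over all genes. The Line 6 count follows the scaling, since after centring on array medians 2 of 19 lay above wild type, beside 29.6% of all genes. Farsb, a subunit of the phenylalanine enzyme, read 1745 in Line 6, 2588 in Line 3 and 1290 in wild type. Kars, the lysine enzyme, read 911 in Line 6, 1355 in Line 3 and 785 in wild type. Iars and Wars, the isoleucine and tryptophan enzymes, had differences of 0.16 and 0.24 in Line 6, against 0.60 and 0.56 for Line 3.

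Serine, glycine and one-carbon enzymes lay on the same side as Psat1 and Phgdh. Of 20 listed, 11 passed the filter, and 10 of them lay above wild type in Line 6 and 9 in Line 3, with medians of 0.29 and 0.55. Over all genes 57.6% lay above wild type in Line 6 and 60.6% in Line 3, and the median of the 11 exceeded that of all genes by 0.23 and 0.43. After centring on array medians, 7 of the 11 lay above wild type in Line 6, beside 29.6% of all genes. Mthfd1, a folate enzyme, was 2-fold higher in Line 3 (1970 in Line 6, 3124 in Line 3 and 1512 in wild type, a difference of 1.04 in Line 3), and the difference was 0.997 after cyclic loess and 0.84 and 0.82 on the other probe sets. Gcsh of the glycine cleavage system (0.63 in Line 6 and 0.77 in Line 3), the methionine synthase gene Mtr (0.55 and 0.66) and Shmt1 (0.29 and 0.74) were below 2-fold. Mthfd2, the mitochondrial folate enzyme that ATF4 induces, was not above wild type (-0.21 and -0.34) and was added after its values were seen.

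Amino acid transporters had no common course. The median over 17 kept genes was 0.02 in Line 6 and -0.01 in Line 3, beside 0.06 and 0.12 over all genes. In Line 3, Slc7a8, a transporter of large neutral amino acids, was higher (418 in Line 6, 806 in Line 3 and 233 in wild type, differences of 0.80 and 1.73), and Slc7a11 and Slc6a9 were lower. Slc7a6 lay below 2-fold at 0.86 and 0.95. None of the 17 was past 2-fold in Line 6. Over all genes, 2.57% were higher and 2.41% lower in Line 6, and 3.57% and 4.46% in Line 3.

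The other arms of the unfolded protein response, which run through IRE1 with XBP1 and through ATF6, held no gene past 2-fold in either line among 30 measured, under any of the 4 scalings. Over all genes, 4.98% were past 2-fold in Line 6 and 8.03% in Line 3 as deposited. The medians of the 30 were 0.08 in Line 6 and 0.26 in Line 3, beside 0.06 and 0.12 over all genes. In Line 6, 21 of 30 lay above wild type, where 57.6% of all genes did, and in Line 3, 25 of 30, where 60.6% did. These counts follow the scaling, since centring on array medians, which moves all Line 6 differences down alike, left 4 of 30 and 29.6% of all genes above wild type in Line 6. Pdia4, an oxidoreductase of the endoplasmic reticulum, differed by 0.22 and 0.87 and Creld2 by 0.20 and 0.73, while the sensor gene Ern1 differed by 0.35 and 0.69 and Creb3l2 by 0.35 and 0.70.

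**Figure D3:**
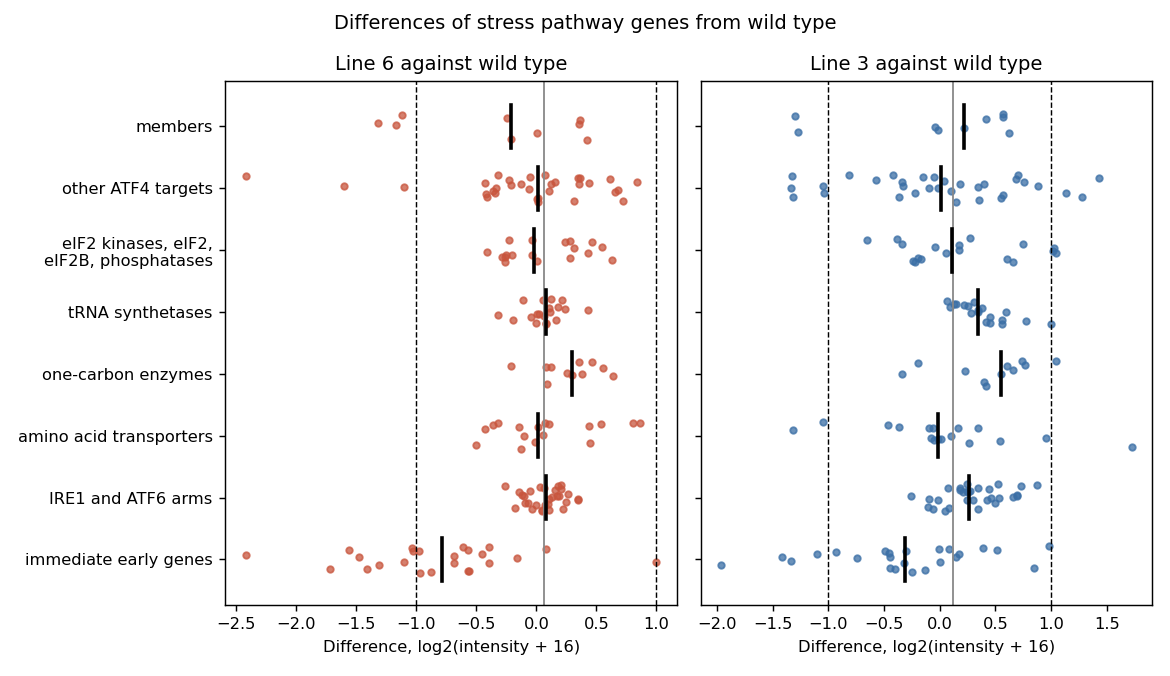
Each point is 1 gene that passed the filter, plotted by its difference from wild type (log2(intensity + 16) scale) in Line 6 (left) and Line 3 (right), by gene list, with a black bar at the list's median, a grey line at the median of all genes and dashed lines at 2-fold. The tRNA synthetase points all lie right of 0 in Line 3, and the median of the immediate early genes is -0.78 in Line 6 and -0.31 in Line 3.

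Genes related to the 9 by sequence took other courses in places. Trib2, unlike Trib1, read 113 in Line 6, 137 in Line 3 and 94.1 in wild type. Sesn1 read 1425 in Line 6, 1168 in Line 3 and 958 in wild type, and Sesn3 read 419 in Line 6, 313 in Line 3 and 220 in wild type, so both lay above wild type where the brighter Sesn2 probe set lay below it. Both kept that direction under quantile normalization, median centring and cyclic loess, with Sesn1 at 0.33 and Sesn3 at 0.65 in Line 6 after centring. Trib2 in Line 6 did not, since its difference was 0.22 as deposited and -0.01 under each of the 3 scalings. Chac2 differed by -0.18 in Line 6 and -0.67 in Line 3. Cebpd, a C/EBP partner, was lower in Line 3 (1739 in Line 6, 1405 in Line 3 and 3262 in wild type, differences of -0.90 and -1.21). Trib2, Sesn1 and Chac2 were added after their values were seen.

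Gene models and accession-like symbols were left out of the search for the closest genes. For each of the genes past 2-fold, the genes closest to it were those with the smallest Euclidean distance over the differences of both lines from wild type, which rests on 3 arrays. Around Trib3 these were Slc25a29 (distance 0.19, differences of -1.41 and -0.18), Egr1 (0.23), Slc66a1 (0.31) and Fos (0.32). Egr1 and Fos, both immediate early transcription factor genes, read 1313 and 3915 in Line 6, 4086 and 7276 in Line 3, and 3690 and 7981 in wild type. Around Chac1 the closest were Acpp (distance 0.02), Dennd11 (0.02), Lhx1 (0.02) and Jdp2 (0.05). Around Sesn2 they were Acpp (0.04), Chac1 (0.06), Jdp2 (0.07) and Lhx1 (0.07). Slc25a29 read 30.8 in Line 6, 93.8 in Line 3 and 108 in wild type, and Lhx1 read 42.0, 35.5 and 108 in the same order. Both passed the filter only through wild type.

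Lists of immediate early genes and of cell type markers differed between the arrays beside these results. Of 24 immediate early genes, 22 lay below wild type in Line 6 and 16 in Line 3. Over all genes, 57.6% and 60.6% lay above it. At least 2-fold lower were 9 and 4 of the 24, beside 2.41% and 4.46% of all genes. After centring on array medians, 12 of the 24 were in Line 6, beside 468 of the 10864 genes. By the mean absolute difference over both lines the first were Atf3, Socs3 (-1.72 and -1.96), Klf2 (-1.31 and -1.41) and Egr3 (-1.41 and -1.10). Their summed intensity was 50556 in Line 6, 71393 in Line 3 and 79950 in wild type. All 10 measured neutrophil markers of 12 listed lay below wild type in both lines, except 1 in Line 6 after cyclic loess, with 4 and 6 past 2-fold and a summed intensity of 96720 in Line 6, 75242 in Line 3 and 136829 in wild type. All 9 measured B lineage markers were above wild type in Line 6 (sum 11565, against 4245 in Line 3 and 3639 in wild type), and 5 of 6 mast and basophil markers that passed the filter were at least 2-fold higher in Line 3 (26262, against 14971 in Line 6 and 14905 in wild type). The macrophage list of 10 had 6 genes past 2-fold upwards in Line 6 and 7 in Line 3 (16741 and 19477, against 12705 in wild type). For all genes the upward shares were 2.57% and 3.57%. Below wild type lay 2 of the 10 in each line, down to -0.41 in Line 6 and -0.34 in Line 3. Cd5l, a macrophage marker that read 65.4 in wild type, passed the filter only through the lines. No listed marker was at 0 on any array, but neither was any other probe set, as the lowest intensity was 0.0188. The lack of zeros therefore does not show which cell types were present. The part of these cell types and genes in the values of Chac1, Sesn2 and Trib3 was not tested, and in bulk RNA fewer cells of a type and less RNA per cell cannot be told apart.

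The labelled progenitor identity was checked on Kit (899 in Line 6, 923 in Line 3 and 603 in wild type) and Cd34 (1838 in Line 6, 2315 in Line 3 and 971 in wild type), which were above the array medians throughout, while no probe set was paired with Ly6a. Of the 7 measured stem and progenitor markers, 2 lay below the median of the wild type array: Procr at 32.3 and Mecom at 69.6. Of the neutrophil genes, Ltf read 8396 in Line 6, 6801 in Line 3 and 14757 in wild type, beside a highest intensity of 25535 over all probe sets and arrays. It was chosen after its values were seen. Kdm1a read 2575 in Line 6, 2979 in Line 3 and 2104 in wild type on its brighter probe set and 911, 1482 and 916 on the other, and the sources used here do not say if either probe set binds the transgene's RNA.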

How the data were processed

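The deposited values are linear intensities for each probe set, and the sources used here do not state how they were summarised. They look scaled by the authors: the mean of the values left after cutting 2% at either tail was 497 for every array. Per the labels' protocols, RNA came from Trizol extraction and was amplified with the Ovation Pico WTA System. Probe sets were paired with genes through the platform annotation, and symbols were updated through Entrez identifiers for 34741 of 34945 single-symbol probe sets. Differences were computed on log2(intensity + 16). The 9 genes, the 20 lists and the alternatives were chosen with earlier results of these data known. Besides the 9 genes, the text names up to 4 genes per list with the largest mean absolute difference, those past 2-fold where a list has at most 5, and the 4 nearest to each of the 9 past 2-fold. The procedure was tested on simulated data. Detection calls were not used, so a dim intensity could not be told from background. Computation used limma 3.58.1 in R 4.3.3 and, in Python 3.11.15, pandas 2.3.3 and numpy 2.4.6.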

Additional observations from a re-analysis of the deposited data

Results flagged for a closer look

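Asns stood out because the lines lay on opposite sides of wild type on both of its probe sets, at -0.24 in Line 6 and 0.41 in Line 3 on the brighter one and at -0.43 and 0.27 on the other. The second Sesn2 probe set also had opposite signs, 0.15 in Line 6 and -0.30 in Line 3. Neither difference between the lines was tested, because each line had 1 array.

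Probe sets that the annotation pairs with Phgdh and a second gene were outside the comparisons. The one shared with Gm8096 read 795 in Line 6, 1015 in Line 3 and 560 in wild type, and the one shared with Gm6756 read 898 in Line 6, 1054 in Line 3 and 726 in wild type. Both had the order of the 4 single-symbol Phgdh probe sets.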

How the results depend on the processing

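The comparisons below are given as Line 6 minus wild type, Line 3 minus wild type and Line 3 minus Line 6. Quantile normalization, median centring, cyclic loess, no filter and a pseudocount of 1 left the count of the 9 genes past 2-fold at 3, 2 and 1. With the filter at percentile 75, which leaves 6 of the 9, or with the median of each gene's probe sets, the counts were 1, 1 and 0. The gene counted differed: it was Sesn2 at percentile 75, which leaves out Chac1 and Trib3, and Chac1 with the median of probe sets. With a pseudocount of 64 the first count was 1 and the last 0, and restricting to plain _at probe sets, which leaves 5 of the 9, made the last 0. The last count was 2 at 1.5-fold, and all 3 counts were 0 at 3-fold. Chac1 kept its side of 2-fold in Line 3 under every scaling and pseudocount, and in Line 6 it was -0.97 with a pseudocount of 64. Under the median of probe sets Sesn2 was -0.51 in Line 6 and -0.80 in Line 3, and Trib3 was -0.81 in Line 6 and 0.65 between the lines. With a pseudocount of 64 Trib3 was -0.89 and 0.88. The median of the 9 genes in Line 6 was -0.45 after centring, -0.10 at percentile 75 and -0.082 when each gene's probe sets were combined by their median. The combined probe sets gave 0.097 in Line 3, plain _at probe sets gave -0.038 there, and between the lines it was 0.41 after centring. Over all genes the counts past the limit were 1263, 1569 and 833 without a filter, 218, 413 and 93 at percentile 75, and 318, 569 and 119 with a pseudocount of 64. They were 1760, 2752 and 1040 at 1.5-fold and 131, 252 and 53 at 3-fold, against 541, 872 and 249 in the analysis reported. The cause of these moves was not tested beyond the genes, probe sets or limits each alternative leaves. No paired analysis was possible because each genotype had 1 array. No replicate could be left out for the same reason.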

Other observations

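Of 9 heat shock genes that passed the filter, Hspa1a and Hspa1b, inducible chaperone genes of near-identical sequence whose signals are therefore uncertain, were at least 2-fold higher in Line 6, where 2.57% of all genes were (152 and 403 in Line 6, 57.2 and 168 in Line 3, 50.3 and 87.5 in wild type). Hspa1a passed the filter only through Line 6, and Hspa1b only through the lines. Hsph1, a co-chaperone gene, was higher in Line 3 (1.05, and 0.74 in Line 6). Of 17 NRF2 target genes, none was past 2-fold in Line 6 as deposited, where 4.98% of all genes were. Osgin1, however, was past it downwards after median centring (-1.12) and cyclic loess (-1.02). In Line 3, where 3.57% of all genes were higher and 4.46% lower, Gsta4, a glutathione transferase gene, was higher (1.79) and Osgin1 (-1.43) and Slc7a11 were lower. Gsta4 read 73.4 in wild type and passed the filter only through the lines. Of 16 genes kept from the list used here for p53, in which Sesn1 and Sesn3 had been placed, 1 was past 2-fold against wild type as deposited. It was lower in Line 3, where 4.46% of all genes were. This was Fas, the death receptor gene, which read 123 in Line 6, 43.7 in Line 3 and 214 in wild type.

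None of 20 measured genes around mTORC1, on which Sesn2 acts, was past 2-fold in either line as deposited. Over all genes, 4.98% were past 2-fold in Line 6 and 8.03% in Line 3. The median of the 20 was 0.30 in Line 6 and 0.32 in Line 3, beside 0.06 and 0.12 over all genes. Rragd, a GTPase gene of the amino acid sensing branch, read 81.3 in Line 3, 244 in Line 6 and 176 in wild type, a difference of -1.42 between the lines. Against wild type in Line 3 it was -0.98 as deposited and between -1.064 and -1.003 under the other 3 scalings, which puts it past 2-fold. Summed stem and progenitor markers read 4707 in Line 6, 6255 in Line 3 and 2773 in wild type. At least 2-fold higher were 3 of 7 genes in Line 6 and 5 in Line 3, beside 2.57% and 3.57% of all genes. Procr and Mecom, counted in both lines, passed the filter only through the lines. Summed erythroid markers read 15468 in Line 6, 14947 in Line 3 and 14466 in wild type, and T cell markers 1782, 1479 and 1419 in the same order.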
